A study of Mus musculus with 9 samples.

Results

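The interleukin 1 (IL-1) receptor family comprised *Il1r1*, *Il1r2*, *Il1rap*, *Il1rl1*, *Il1rl2*, *Il18r1*, *Il18rap* and *Sigirr*, and it was examined together with *Il1rn*, the gene of the soluble IL-1 receptor antagonist. These 9 genes were taken by symbol from a table of 54347 genes measured by poly-A RNA sequencing in 3 mouse myeloid cell lines, with 3 libraries per line. Hox-WT (HoxWT in the labels, genotype WT) and Hox-URE (HoxURE, genotype UREd/d) are lines of bone marrow progenitors immortalized with a Hoxb8 fusion protein that acts while estradiol is present. URE-AML (B22 in the labels, genotype UREd/d) is a line of leukemic blasts from a diseased mouse and was not derived from Hox-URE. Stage, donor mouse and immortalization therefore differ together between Hox-URE and URE-AML. UREd/d marks loss, on both alleles, of the upstream regulatory element, an enhancer of *Spi1*, which encodes the transcription factor PU.1. All 3 lines were kept in IMDM with fetal calf serum, IL-3, IL-6, SCF (each at 10 ng/ml) and estradiol, and no IL-1 family cytokine was named among the additions. Each genotype and stage was represented by a single line, so every difference below is one between lines, and whether separate cultures were used for the libraries of a line was not stated in the labels.

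Receptors of this family pair a chain that binds the cytokine with an accessory chain, and the joined intracellular TIR domains recruit MYD88 and the IRAK kinases, which act through TRAF6 on NF-kB and MAP kinases. IL1R1 binds IL-1 alpha and IL-1 beta, IL1RL1 (ST2) binds IL-33, and IL1RL2 binds the IL-36 cytokines, and all of them use IL1RAP as the accessory chain. IL18R1 binds IL-18 and uses its own accessory chain, IL18RAP. Signalling is held back by IL1R2, a decoy without a TIR domain, by the antagonist encoded by *Il1rn*, and by SIGIRR, an inhibitory member with a single immunoglobulin domain. In blood formation, IL-1 is known for driving myeloid output in inflammation, ST2 for marking mast cells and basophils, and IL1RAP for its surface expression on leukemic cells in human myeloid leukemia.

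Of the 9 genes, 6 lie side by side on the plus strand of chromosome 1, in the order *Il1r2*, *Il1r1*, *Il1rl2*, *Il1rl1*, *Il18r1* and *Il18rap*, within 478 kb (40074079 to 40551705 of GRCm38). In the GENCODE M21 annotation *Il1r2* (ENSMUSG00000026073) spans 40074079 to 40125231, *Il1r1* (ENSMUSG00000026072) 40225080 to 40317257, *Il1rl2* (ENSMUSG00000070942) 40324610 to 40367562, *Il1rl1* (ENSMUSG00000026069) 40429570 to 40465415, *Il18r1* (ENSMUSG00000026070) 40465552 to 40500854 and *Il18rap* (ENSMUSG00000026068) 40515362 to 40551705. Outside the cluster, *Il1rap* (ENSMUSG00000022514) lies on chromosome 16 at 26581704 to 26730117 and *Il1rn* (ENSMUSG00000026981) on chromosome 2 at 24336853 to 24351494, both on the plus strand, and *Sigirr* (ENSMUSG00000025494) on chromosome 7 at 141091175 to 141100572 on the minus strand. All 9 genes are protein-coding. *Il1r1*, *Il1r2* and *Il1rl2* each share their strand and position with a predicted gene (*Gm38070*, *Gm37347* and *Gm17970*), so reads may have been divided between them. For the cluster genes whose call was higher for Hox-URE than Hox-WT with no overlap between libraries, the 250 bases before the first annotated start are shown, so that these windows can be read beside the levels reported below. They are given as plus-strand sequence from RefSeq on GRCm38.p6, at chr1:40224830-40225079 for *Il1r1*, chr1:40324339-40324588 for *Il1rl2*, chr1:40429320-40429569 for *Il1rl1* and chr1:40515112-40515361 for *Il18rap*, and capitals mark matches to the motifs named after them.
Il1r1: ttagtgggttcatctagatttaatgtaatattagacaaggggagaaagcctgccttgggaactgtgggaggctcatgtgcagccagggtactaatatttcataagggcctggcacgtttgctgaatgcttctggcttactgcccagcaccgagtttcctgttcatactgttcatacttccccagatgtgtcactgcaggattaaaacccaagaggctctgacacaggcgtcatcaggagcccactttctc
Il1rl2: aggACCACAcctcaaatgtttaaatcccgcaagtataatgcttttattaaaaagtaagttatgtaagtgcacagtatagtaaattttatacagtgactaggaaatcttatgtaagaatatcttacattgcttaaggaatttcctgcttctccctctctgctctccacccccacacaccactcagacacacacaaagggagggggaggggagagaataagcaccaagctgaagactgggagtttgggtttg
Il1rl1: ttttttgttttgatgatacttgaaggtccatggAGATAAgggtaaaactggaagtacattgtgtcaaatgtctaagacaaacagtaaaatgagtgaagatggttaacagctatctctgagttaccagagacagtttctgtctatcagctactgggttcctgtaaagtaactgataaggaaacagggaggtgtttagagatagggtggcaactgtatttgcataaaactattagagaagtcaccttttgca
Il18rap: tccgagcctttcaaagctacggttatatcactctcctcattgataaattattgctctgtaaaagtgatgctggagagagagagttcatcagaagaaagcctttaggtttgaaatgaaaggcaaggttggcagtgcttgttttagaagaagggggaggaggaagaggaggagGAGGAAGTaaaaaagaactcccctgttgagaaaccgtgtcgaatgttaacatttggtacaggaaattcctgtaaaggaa
Motifs were searched on both strands. PU.1 was represented by GAGGAAGT and C/EBP by TTGCGCAA. For RUNX factors the letters TGTGGT were used. For GATA factors the letters AGATAA were used. The *Il18rap* window held the PU.1 motif, the *Il1rl1* window the GATA motif, the *Il1rl2* window the RUNX motif on the minus strand, and the *Il1r1* window none of them. Of 32817 promoter windows of this length, 2.44% held the PU.1 motif, 14% the RUNX motif, 0.165% the C/EBP motif and 9.99% the GATA motif. Over all 14 windows of the 8 family genes with an entry, the counts were 1, 2, 0 and 2. *Sigirr* had no entry. A match describes letters in a window and not a bound site.

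The libraries held 20331064 to 28588718 counts, at which 3 counts correspond to 0.104 to 0.153 CPM (counts normalised to the library total with TMM scaling). *Spi1* was at 110, 101 and 96.5 CPM in Hox-WT, at 0.0364, 0.0414 and 0 CPM in Hox-URE and at 2.5, 5.52 and 6.35 CPM in URE-AML. Among progenitor markers, *Kit* was detected in every library, at means of 175 CPM in Hox-WT, 43 CPM in Hox-URE and 96.9 CPM in URE-AML. *Cd34* was at means of 1430, 926 and 0.0135 CPM in these lines. *Ptprc* (CD45) was at 152 to 170 CPM in Hox-WT but at 0 in all Hox-URE libraries and at most 0.0429 CPM in URE-AML, and *Flt3* was at 0 in all URE-AML libraries. Of the 9 family genes, 8 were tested. *Il18r1* was too low to test, and *Il1r1* and *Il1rl2* passed the filter on low counts through Hox-URE and URE-AML, with 0 Hox-WT libraries above its limit of 0.391 CPM. A gene was called where it differed by more than 1.5-fold and edgeR gave an adjusted p under 0.05. Of 7 progenitor markers tested, Hox-URE had 0 called higher and 5 lower than Hox-WT, where the shares of all tested genes were 21.3% and 15.9%. Those lower were *Kit*, *Cd34*, *Myb*, *Ptprc* and *Flt3*. In URE-AML the same 5 were called lower than in Hox-WT and *Ly6a* higher, where the shares were 20.2% and 23.0%. *Ptprc* passed the filter only through Hox-WT and could hardly have been called higher.

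The signalling receptor for IL-1 was close to silent in Hox-WT and well expressed in Hox-URE. *Il1r1* was at 0.187, 0.214 and 0.311 CPM in Hox-WT, from 5, 6 and 9 counts. In Hox-URE it was at 50.01, 60.06 and 35.95 CPM, and in URE-AML at 1.05, 1.14 and 0.729 CPM. All Hox-URE libraries thus stood far above all others, and the URE-AML libraries stood in between without overlap. The log2 fold change, given with its standard error (SE), was 7.64 ± 0.29 (adjusted p = 3.67e-08 by edgeR) for Hox-URE against Hox-WT and 2.0 ± 0.37 (adjusted p = 0.000964 by edgeR) for URE-AML against Hox-WT. Between the URE lines *Il1r1* fell by 5.64 ± 0.25 on the log2 scale in URE-AML (adjusted p = 4.79e-08 by edgeR). As these are bulk libraries, fewer cells that express a gene and less RNA of it per cell cannot be told apart.

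*Il1rap*, the accessory chain shared by the IL-1, IL-33 and IL-36 receptors, was expressed in all 3 lines. Its levels were 22.15, 25.7 and 25.24 CPM in Hox-WT, 49.83, 67.68 and 80.42 CPM in Hox-URE and 47.35, 49.73 and 47.48 CPM in URE-AML. Every library of the URE lines was above every Hox-WT library, and the Hox-URE libraries were all above those of URE-AML, the lowest by a narrow margin. *Il1rap* rose by a log2 difference of 1.44 ± 0.16 (± SE, adjusted p = 4.02e-05 by edgeR) in Hox-URE and of 0.98 ± 0.16 (adjusted p = 0.000363 by edgeR) in URE-AML, both against Hox-WT. URE-AML against Hox-URE gave -0.45 ± 0.15 (adjusted p = 0.0282 by edgeR), which was under the fold change required for a call. That difference ranged from -0.62 to -0.29 as single libraries were left out. It was called without Hox-URE library 1 (-0.62, adjusted p = 0.000731 by edgeR), and the adjusted p was 0.0576 to 0.11 without Hox-URE library 2 or 3 or any URE-AML library, with -0.29 without Hox-URE library 3.

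*Il1rn* was high in both URE lines. The antagonist gene was at 1.31, 0.643 and 1.52 CPM in Hox-WT, at 48.67, 62.96 and 74.86 CPM in Hox-URE and at 79.64, 58.2 and 63.95 CPM in URE-AML. No library of a URE line came near the Hox-WT libraries, whereas the libraries of Hox-URE and URE-AML overlapped. Against Hox-WT the log2 difference was 5.74 ± 0.29 (± SE, adjusted p = 1.83e-07 by edgeR) in Hox-URE and 5.85 ± 0.29 (adjusted p = 7.46e-08 by edgeR) in URE-AML. URE-AML against Hox-URE gave 0.12 ± 0.22 (adjusted p = 0.674 by edgeR), and this small difference turned to -0.04 without Hox-URE library 1 and to -0.02 without URE-AML library 1. The receptor gene *Il1r1* was thus lower in URE-AML than in Hox-URE, while the gene of its antagonist was not called between them. Transcripts for the secreted and intracellular forms of the antagonist were not separated in these gene counts, nor were soluble and membrane forms of *Il1r2*, *Il1rap* and *Il1rl1*.

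*Il1r2*, the decoy receptor, stayed low in every library. Its counts gave 0.262, 0.464 and 0.864 CPM in Hox-WT, 0.619, 2.11 and 2.30 CPM in Hox-URE and 0.404, 0.428 and 0.686 CPM in URE-AML. Hox-URE library 1 lay within the range of both other lines, and the other Hox-URE libraries lay above it. The log2 difference was 1.63 ± 0.57 (± SE, adjusted p = 0.033 by edgeR) for Hox-URE against Hox-WT and -1.71 ± 0.58 (adjusted p = 0.0273 by edgeR) for URE-AML against Hox-URE, while URE-AML against Hox-WT gave -0.07 ± 0.60 (adjusted p = 0.932 by edgeR). Both calls depended on single libraries. The first was lost without Hox-WT library 1 or 2 (adjusted p = 0.11 and 0.0978, edgeR) and without Hox-URE library 2 or 3 (adjusted p = 0.108 in either case, edgeR). The second was lost without Hox-URE library 2 or 3 (adjusted p = 0.088 and 0.0877, edgeR) and without URE-AML library 1 or 2 (adjusted p = 0.0875 and 0.0836, edgeR).

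**Figure D1:**
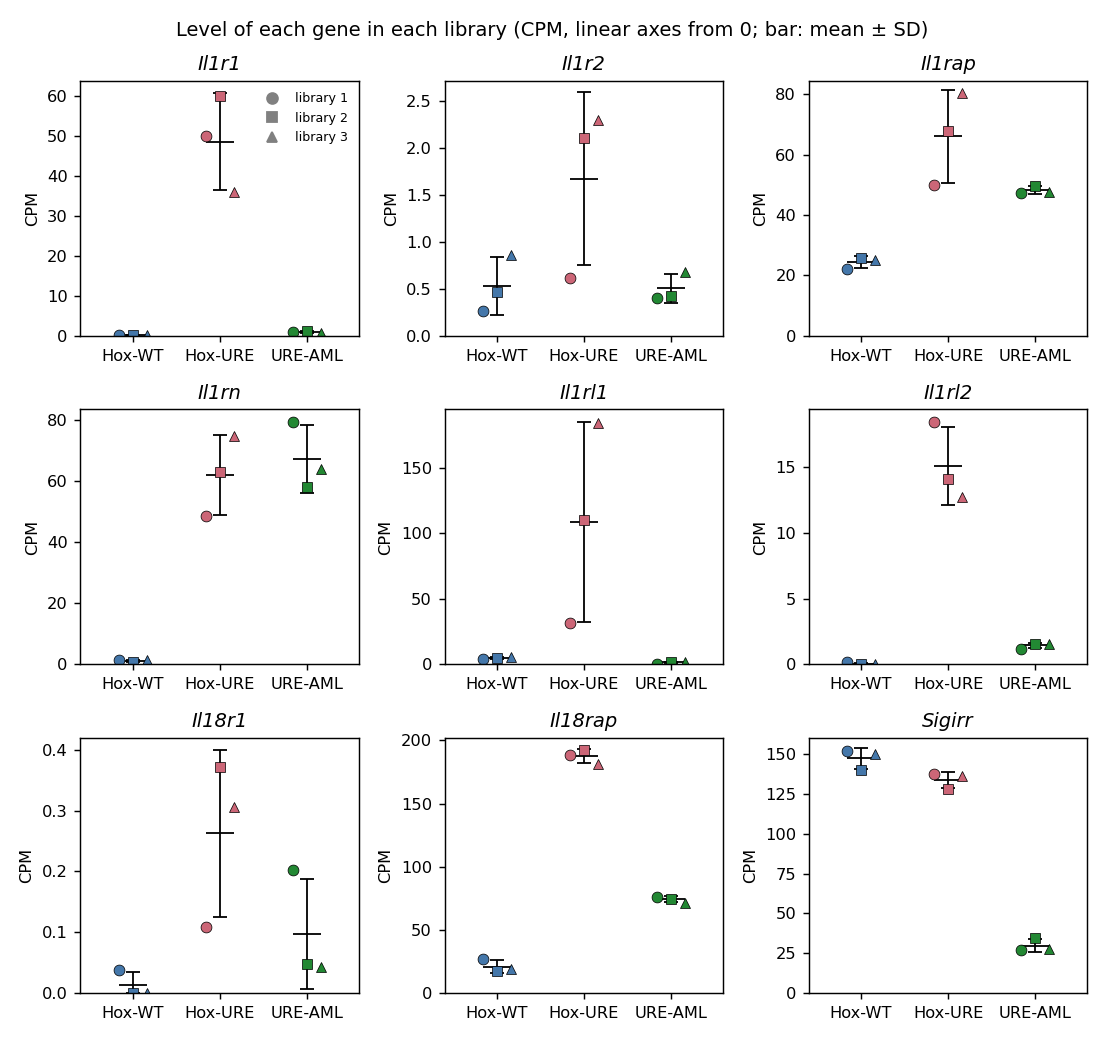
Levels of the 9 family genes in CPM, each on its own linear axis from 0, with 1 point per library (library number by shape), the 3 lines in colour, a horizontal line at each line's mean and whiskers of 1 SD. *Il1r1*, *Il1rl1*, *Il1rl2* and *Il18rap* are highest in Hox-URE, *Il1rn* is high in both URE lines, and *Sigirr* is lowest in URE-AML.

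The IL-33 receptor gene *Il1rl1* was the most variable of the tested members within Hox-URE. It was at 4.46, 5.21 and 5.46 CPM in Hox-WT, at 31.74, 110.3 and 184.3 CPM in Hox-URE and at 0.686, 2.04 and 1.76 CPM in URE-AML. The 3 lines did not overlap, but the highest Hox-URE library was 5.81-fold above the lowest. *Il1rl1* rose by a log2 difference of 4.43 ± 0.57 (± SE, adjusted p = 0.00012 by edgeR) in Hox-URE against Hox-WT, which was 3.81 without Hox-URE library 3. URE-AML against Hox-URE gave -6.20 ± 0.65 (adjusted p = 2.21e-05 by edgeR) with all libraries and -5.59 without that library. URE-AML against Hox-WT gave -1.77 ± 0.64 (adjusted p = 0.0365 by edgeR), a call that was lost when any of the 6 libraries of these lines was left out (adjusted p of 0.0526 to 0.125, edgeR).

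Markers of mast cells and basophils, in which ST2 is known to be expressed, varied in the same libraries. The summed level of the 12 marker genes was 726, 902 and 1040 CPM in Hox-WT, 1930, 4070 and 6460 CPM in Hox-URE and 79.8, 94 and 121 CPM in URE-AML. Library 1 was the lowest of Hox-URE and library 3 the highest for both *Il1rl1* and this sum. Summed megakaryocyte (16.5, 36.1 and 51 CPM), lymphoid (199, 503 and 612 CPM) and neutrophil markers (2720, 3860 and 4100 CPM) also ran in this order in Hox-URE. Those of monocytes and eosinophils did not. The order was thus not particular to mast cell and basophil markers. *Cpa3*, a mast cell carboxypeptidase, was at 768, 2790 and 4430 CPM in Hox-URE. *Prss34*, a basophil protease, was at 591, 442 and 1080 CPM there. Of the 8 mast cell and basophil markers tested, Hox-URE showed 6 higher and 0 lower calls relative to Hox-WT, where 21.3% of all tested genes were called higher. *Tpsab1* and *Prss34* were under the filter limit of 0.391 CPM in every Hox-WT library and could hardly have been called lower. The counts of this list therefore carry no test. URE-AML showed 1 higher and 5 lower relative to Hox-WT, where the shares of all tested genes were 23.0% and 20.2%, and all 8 were called lower than in Hox-URE, where 22.4% of all tested genes were. The markers at 0 in every library were *Fcer1a* and *Mcpt4* in Hox-URE, *Mcpt4* in URE-AML, and *Fcer1a*, *Cma1*, *Tpsab1*, *Tpsb2* and *Mcpt4* in Hox-WT. The part of these markers in the level of *Il1rl1* was not tested.

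**Figure D2:**
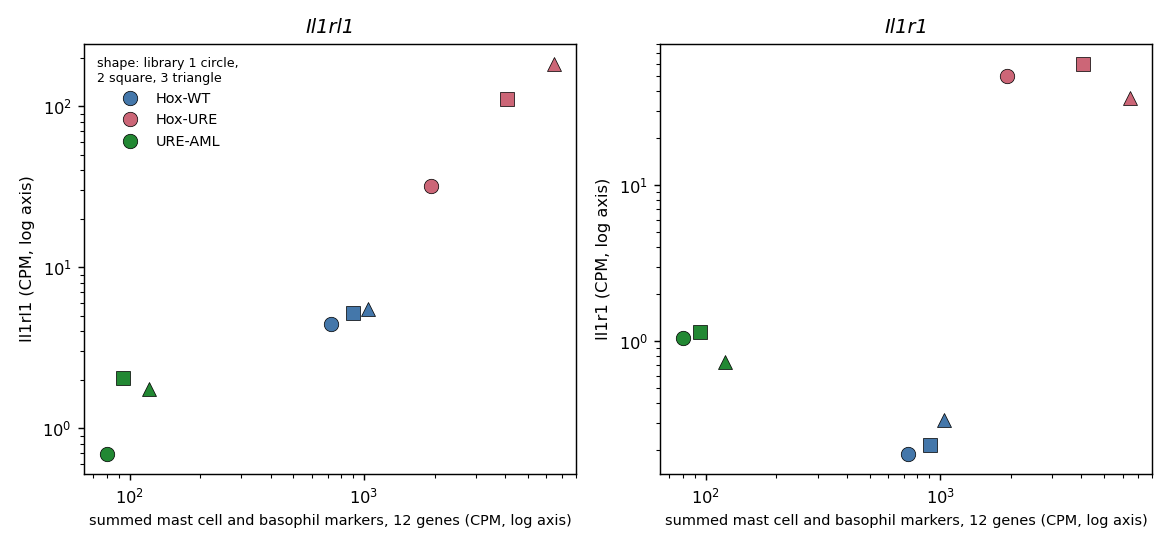
*Il1rl1* and *Il1r1* in CPM against the summed CPM of 12 mast cell and basophil markers, with 1 point per library, lines in colour and library numbers by shape, on log axes. Within Hox-URE, *Il1rl1* runs from 31.74 to 184.3 CPM as the sum runs from 1930 to 6460 CPM, while *Il1r1* stays between 35.95 and 60.06 CPM and is lowest where the sum is highest.

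*Il1rl2*, the IL-36 receptor gene, was at the limit of detection in Hox-WT, where the libraries held 4, 0 and 1 counts. It was at 18.45, 14.08 and 12.71 CPM in Hox-URE and at 1.21, 1.52 and 1.59 CPM in URE-AML. The lines were apart in the same order as for *Il1r1*, with Hox-URE highest. Summed over libraries, Hox-WT held 5 counts, Hox-URE 1096 and URE-AML 99. Scaled for library size, the ratio of Hox-URE to Hox-WT was 257 (95% interval 110 to 795) and that of URE-AML to Hox-WT was 24 (9.93 to 75.4), intervals that cover counting error only. The fitted log2 fold changes were 7.86 ± 0.48 (± SE, adjusted p = 6.9e-07 by edgeR) and 4.47 ± 0.54 (adjusted p = 5.08e-05 by edgeR), and without Hox-WT library 1, which held most of the Hox-WT counts, they were 9.38 and 5.99. Without Hox-WT library 2, at 0 counts, they were 7.31 and 3.92. *Il1rl2* fell by 3.39 ± 0.33 on the log2 scale in URE-AML against Hox-URE (adjusted p = 1.31e-05 by edgeR).

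The IL-18 receptor was represented almost entirely by its accessory chain. *Il18rap* was at 26.57, 17.1 and 18.6 CPM in Hox-WT, at 188.3, 192.7 and 181.6 CPM in Hox-URE and at 76.37, 74.32 and 71.54 CPM in URE-AML. The 3 lines were well apart, and the libraries within each URE line were close to each other. Against Hox-WT, *Il18rap* rose by a log2 difference of 3.18 ± 0.15 (± SE, adjusted p = 1.39e-07 by edgeR) in Hox-URE and 1.84 ± 0.15 (adjusted p = 2.61e-06 by edgeR) in URE-AML. It fell by 1.34 ± 0.14 in URE-AML against Hox-URE (adjusted p = 2.33e-05 by edgeR). *Il18r1*, the chain that binds IL-18, held 1, 0 and 0 counts in Hox-WT, 3, 9 and 6 in Hox-URE and 5, 1 and 1 in URE-AML, at or near the limit of detection. Scaled for library size, the ratio of its summed counts in Hox-URE to those in Hox-WT was 21.1 with an interval of 3.34 to 881. With no filter on low counts it gave a log2 fold change of 3.95 in that comparison (adjusted p = 0.0154 by edgeR), which rests on a single Hox-WT count.

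Both chains of the IL-18 receptor are known from lymphoid cells, so lymphoid markers are given beside them. Their summed level was 150 to 416 CPM in Hox-WT, 199 to 612 CPM in Hox-URE and at most 0.202 CPM in URE-AML. Nearly all of it was *Thy1*, at 181, 483 and 595 CPM in Hox-URE, and this gene was at 0 in URE-AML. Of 5 lymphoid markers tested, 3 were called higher and 1 (*Rag1*) lower for Hox-URE against Hox-WT, against background shares of 21.3% and 15.9%. Those higher were *Gata3*, at 12.7, 13.2 and 12.6 CPM in Hox-URE and 0 in all other libraries, *Rora*, at 4.22, 4.1 and 2.04 CPM in Hox-URE and 0 in Hox-WT, and *Cd79a*, at 1.09, 2.57 and 2.6 CPM in Hox-URE. They were highest in the line in which *Il18rap* was highest, and all 3 were near or at 0 in URE-AML. Outside Hox-URE all 3 were under the filter limit of 0.391 CPM. They passed the filter only through Hox-URE and could hardly have been called lower there. *Rag1*, at 0 in both URE lines, could hardly have been called higher. The counts of this list therefore carry no test. *Cd3e*, *Cd3g* and *Ncr1*, which mark T cells and natural killer cells, were at 0 in all 9 libraries. The part of these markers in the level of *Il18rap* in Hox-URE was not tested.

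*Sigirr*, the inhibitory member, had the highest CPM of the family in Hox-WT and was low in URE-AML. Its levels were 152.2, 140.1 and 150 CPM in Hox-WT, 137.6, 128.3 and 136.1 CPM in Hox-URE and 27.09, 34.61 and 27.49 CPM in URE-AML. The Hox-URE libraries lay just under the Hox-WT libraries, and the URE-AML libraries lay far below both. The log2 difference of URE-AML was -2.31 ± 0.11 against Hox-WT (± SE, adjusted p = 4.78e-08 by edgeR) and -2.17 ± 0.11 against Hox-URE (adjusted p = 9.47e-08 by edgeR). Hox-URE against Hox-WT gave -0.14 ± 0.10 (adjusted p = 0.282 by edgeR) and was not called.

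For Hox-URE against Hox-WT, 7 of the 8 tested genes were called higher and 0 lower, against a background of 37.2% of all 13082 tested genes (21.3% higher, 15.9% lower). The libraries did not overlap for 6 genes that were higher and for 1, *Sigirr*, that was lower, against 60.3% of all genes (30.9% higher, 29.4% lower). The median log2 fold change was 3.80 over the tested members and 0 over all tested genes. *Il1r1* and *Il1rl2* passed the filter only through the lines in which they were higher and could hardly have been called lower, and the call of *Il1r2* was lost without any of 4 single libraries, so these counts and the median describe the members and carry no test. The receptor genes with the largest differences were *Il1rl2* and *Il1r1*, followed by *Il1rl1* and *Il18rap*, all past 3 on the log2 scale, as was the antagonist gene *Il1rn*.

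URE-AML differed from Hox-WT in a mixed pattern. Of the tested genes, 5 were called higher (*Il1r1*, *Il1rap*, *Il1rn*, *Il1rl2* and *Il18rap*) and 2 lower (*Il1rl1* and *Sigirr*), against a background of 43.2% (23.0% higher, 20.2% lower). The same 5 and 2 genes had libraries that did not overlap, against 67.6% of all genes (34.4% higher, 33.2% lower). The median log2 fold change was 1.41. Here too *Il1r1* and *Il1rl2* passed the filter only through lines in which they were higher and could hardly have been called lower. The call of *Il1rl1* was lost without any single library of URE-AML or Hox-WT. These counts and the median therefore describe the members and carry no test. Between the URE lines, URE-AML had 0 members with a higher call and 6 with a lower one (*Il1r1*, *Il1r2*, *Il1rl1*, *Il1rl2*, *Il18rap* and *Sigirr*), against a background of 42.7% (20.3% higher, 22.4% lower). The libraries did not overlap for 6 members, all lower in URE-AML (*Il1rap* in place of *Il1r2*), against 62.8% of all genes (31.8% higher, 31.1% lower). The median log2 fold change there was -1.94. Each line enters a pair of these comparisons, so they are not independent of each other. Neutrophil markers also differed between the lines, with a summed level over 13 genes of 5820 to 9230 CPM in Hox-WT, 2720 to 4100 CPM in Hox-URE and 11600 to 26500 CPM in URE-AML. In URE-AML, 10 of them were called higher and 1 lower than in Hox-WT, and 11 higher and 0 lower than in Hox-URE, while 0 were higher and 11 lower in Hox-URE relative to Hox-WT. The shares of all tested genes called higher and lower were 23.0% and 20.2%, 20.3% and 22.4%, and 21.3% and 15.9% in these comparisons, in that order. *Ltf* and *S100a9* were at 0 in all Hox-URE libraries and *Ly6g* in all Hox-WT libraries, so against those lines these genes could hardly have been called lower. The part of these markers in the family's levels was not tested.

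**Figure D3:**
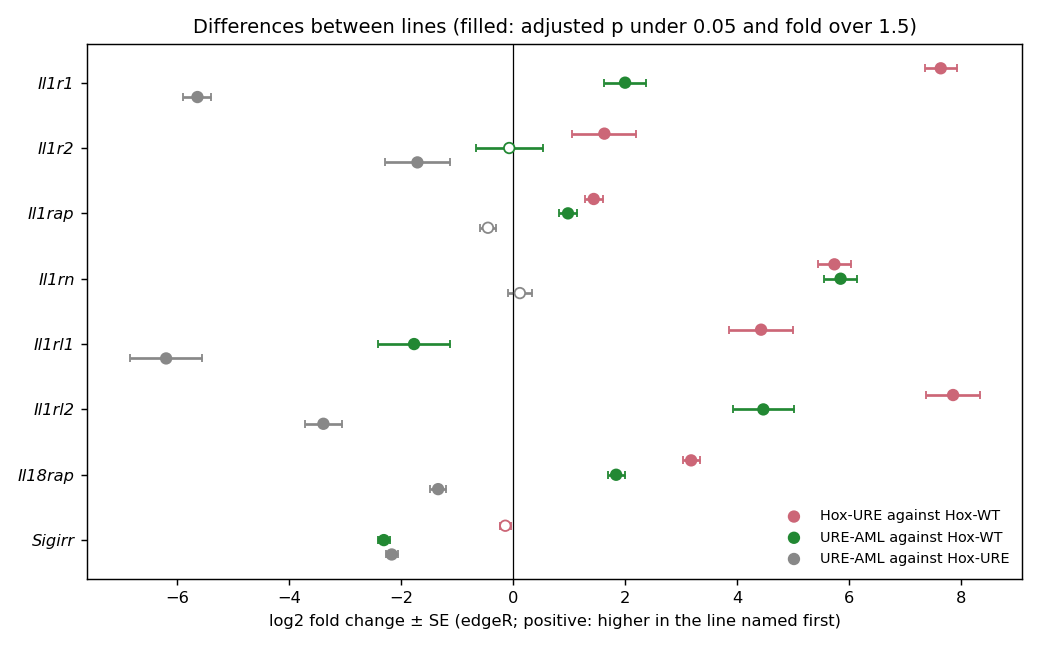
Log2 fold changes of the 8 tested genes in the 3 comparisons, with whiskers of 1 SE and filled points for called genes (more than 1.5-fold, adjusted p under 0.05 by edgeR). Hox-URE against Hox-WT runs from -0.14 for *Sigirr* to 7.86 for *Il1rl2*, and URE-AML against Hox-URE from -6.20 for *Il1rl1* to 0.12 for *Il1rn*.

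Levels of different genes were compared as CPM per kilobase of the longest protein-coding transcript. In Hox-WT, *Sigirr* led with 74.1, followed by *Il1rap* with 5.39 and *Il18rap* with 4.25, whose libraries overlapped. *Il1rl1* (0.951), *Il1rn* (0.468) and *Il1r2* (0.374) came next, the last pair with overlapping libraries, and *Il1r1*, *Il1rl2* and *Il18r1* were at 0.0408 or less. In Hox-URE the order on this scale was *Sigirr* (67.3), *Il18rap* (38.4), *Il1rn* (25.1), *Il1rl1* (20.5), *Il1rap* (14.6), *Il1r1* (8.36), *Il1rl2* (3.86), *Il1r2* (1.18) and *Il18r1* (0.0632). The libraries of *Il1rl1* overlapped with those of the genes on either side of it and also with those of *Il1r1*. In URE-AML, *Il1rn* led with 27.2 CPM per kilobase, ahead of *Il18rap* (15.2) and *Sigirr* (14.9), whose libraries overlapped, and *Il1rap* (10.7). The remaining receptor genes were at 0.368 or less there. The gene of the antagonist was therefore the highest of the family in URE-AML, where the gene of its receptor, *Il1r1*, stood at 0.167 on the same scale. The values depend on the length used. With the mean length of the coding transcripts in place of the longest, 18 of the 27 levels (9 genes in 3 lines) moved by more than the SD between libraries. In Hox-URE *Il1rn* went from 25.1 to 45.1 and *Il1rl1* from 20.5 to 37.2, and in Hox-WT *Sigirr* went from 74.1 to 115. *Il1rn* then moved ahead of *Il18rap* in Hox-URE and *Sigirr* ahead of *Il18rap* in URE-AML.

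Within the cluster on chromosome 1, genes with a higher call in Hox-URE stood next to genes near 0. *Il1r2*, at the 5′ end, was called with overlapping libraries, *Il1r1*, *Il1rl2* and *Il1rl1* were called without overlap, *Il18r1* was too low to test, and *Il18rap* at the 3′ end had the highest CPM of the cluster. The neighbouring gene *Map4k4*, a kinase gene upstream of *Il1r2*, was at 67.1 CPM in Hox-WT and 71.9 CPM in Hox-URE (log2 fold change 0.10 ± 0.35, adjusted p = 0.839 by edgeR). Downstream of *Il18rap*, *Slc9a4* was at 0 in all 9 libraries. Of 10 neighbouring genes, 5 were tested and 2, *Tbc1d8* and *Mfsd9*, were called higher in Hox-URE, with log2 fold changes of 1.34 ± 0.19 and 4.50 ± 0.43, a share near the 37.2% of all tested genes called. *Mfsd9*, a transporter-like gene, was nevertheless at a mean of only 1.47 CPM in that line. Between the URE lines the tested cluster genes differed by -1.34 to -6.20, whereas the neighbours went both ways. Of the 5 tested, *Map4k4* fell by 2.39 ± 0.38 on the log2 scale in URE-AML (adjusted p = 0.000369 by edgeR), *Tbc1d8* rose by 2.50 ± 0.19 (adjusted p = 1.72e-06 by edgeR), and *Cnot11*, *Rnf149* and *Mfsd9* were not called.

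**Figure D4:**
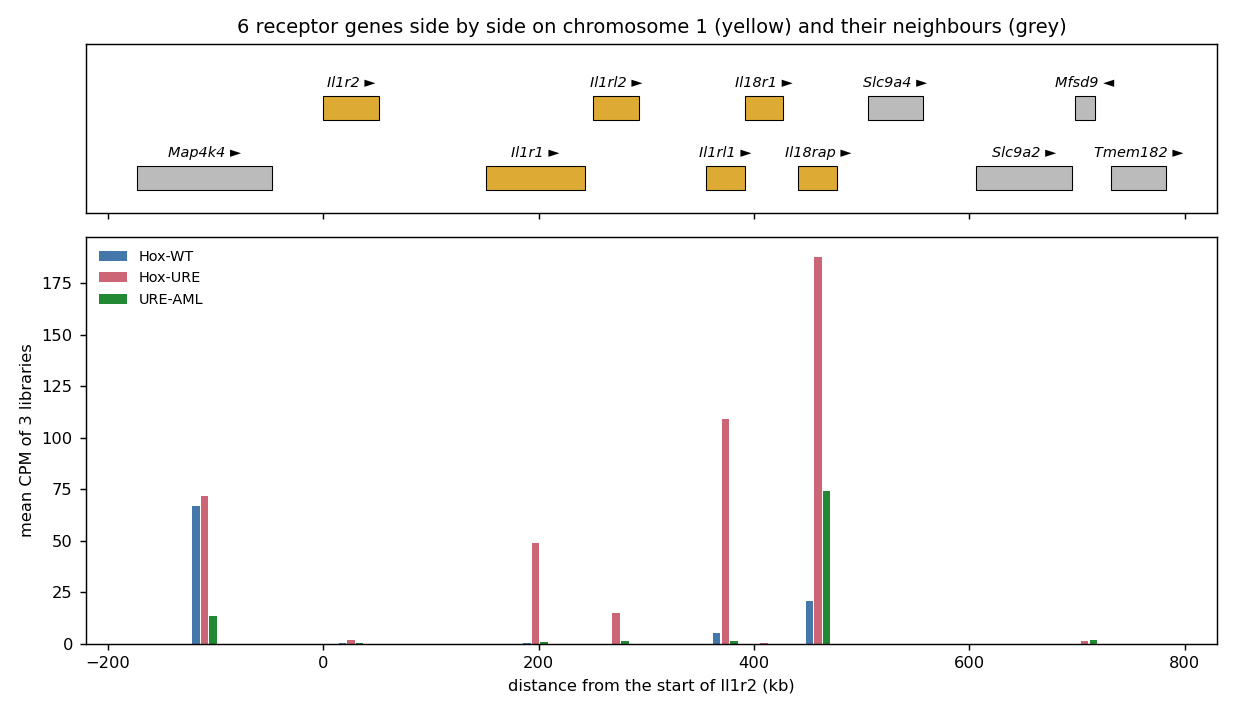
The upper panel maps the 6 receptor genes of the chromosome 1 cluster (yellow) and their neighbours (grey), with arrows for the strand, by distance in kb from the start of *Il1r2*, and the bars below give each gene's mean CPM over 3 libraries in each line on a linear axis from 0, without error bars. *Il18rap* at 187.5 CPM and *Il1rl1* at 108.8 CPM stand out in Hox-URE, and *Il18r1*, which lies between them, is at 0.263 CPM.

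The ligand genes were mostly not detected. Of 10 genes for IL-1 family cytokines and the IL-18 binding protein, 3 were tested. *Il33*, which encodes the ligand of ST2, was at 3.31, 5.09 and 4.8 CPM in Hox-URE and at 0 in all 6 other libraries, at least 40.8-fold higher than in Hox-WT and at least 33.6-fold higher than in URE-AML with a floor of 3 counts per library. *Il33* and *Il1rl1* were thus both highest in Hox-URE. *Il18bp*, whose product binds and neutralizes IL-18, was at 0, 0.143 and 0.0346 CPM in Hox-WT, 0.51, 0.828 and 2.25 CPM in Hox-URE and 4.48, 5.33 and 10.8 CPM in URE-AML. It rose by a log2 difference of 6.73 ± 0.84 in URE-AML against Hox-WT (± SE, adjusted p = 6.87e-05 by edgeR) and of 2.55 ± 0.60 against Hox-URE (adjusted p = 0.00434 by edgeR). The first value rests on only 5 counts summed over the Hox-WT libraries, for which the scaled ratio of URE-AML to Hox-WT was 115 with a counting interval of 48.9 to 356. *Il1f9*, the gene of IL-36 gamma, rose by 1.76 ± 0.57 in URE-AML against Hox-WT (adjusted p = 0.022 by edgeR), to a mean of 0.821 CPM. *Il1a* and *Il1b*, the ligands of IL1R1, did not exceed 0.214 and 0.257 CPM in any library, and *Il18*, *Il1f5*, *Il1f6*, *Il1f8* and *Il1f10* were at 0 throughout. Relative to Hox-WT, the called genes were thus *Il33* and *Il18bp* in Hox-URE and *Il1f9* and *Il18bp* in URE-AML, and 0 were lower. These are 2 of 3 tested genes in each comparison, beside higher calls for 21.3% and 23.0% over all genes tested, and a gene at or near 0 in Hox-WT could hardly have been called lower.

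Components that act just below the receptors had a median log2 fold change near 0 in the comparisons with Hox-WT. Of 20 tested genes of proximal signalling, Hox-URE had 6 called above Hox-WT and 1 below, with a median of 0.02, and URE-AML had 6 above and 2 below, with a median of 0.17. For URE-AML against Hox-URE the counts were 4 and 3. Read against the 37.2%, 43.2% and 42.7% of all tested genes called in these comparisons, the counts lay near the background. *Myd88* and *Irak1*, the adaptor and a kinase it recruits, were not called in any comparison. *Irak2*, a kinase of the same complex, was at 1.87, 1.54 and 3.22 CPM in Hox-WT, 8.08, 5.8 and 5.11 CPM in Hox-URE and 20.5, 15.3 and 16.8 CPM in URE-AML, and all differences between lines were called. *Irak3*, which encodes an inhibitory family member (IRAK-M), rose by a log2 difference of 1.37 ± 0.14 in Hox-URE (± SE, adjusted p = 2.53e-05 by edgeR) and 0.92 ± 0.14 in URE-AML (adjusted p = 0.000268 by edgeR) against Hox-WT. *Tollip*, which encodes another inhibitor of IRAK signalling, rose by 0.93 ± 0.08 in URE-AML against Hox-WT (adjusted p = 3.01e-06 by edgeR). It was not called in Hox-URE, at 0.07 ± 0.08 (adjusted p = 0.475 by edgeR). The genes called lower than in Hox-WT were *Tab2* in both URE lines and *Chuk* in URE-AML. *Tab2* fell by 0.83 ± 0.12 in Hox-URE (adjusted p = 0.000292 by edgeR) and 0.78 ± 0.12 in URE-AML (adjusted p = 0.000322 by edgeR). *Chuk* fell by 0.60 ± 0.16 (adjusted p = 0.00896 by edgeR).

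Genes of NF-kB factors, their inhibitors and their targets moved in both directions. Relative to Hox-WT, Hox-URE had 3 of 20 tested genes called higher and 6 lower, and for URE-AML the counts were 7 and 8, where 37.2% and 43.2% of all tested genes were called. The first count lay near that background and the second above it. *Tnfaip3*, a feedback inhibitor, was at a mean of 1.83 CPM in Hox-WT, 10.6 CPM in Hox-URE and 3.97 CPM in URE-AML, and its rise in Hox-URE gave a log2 difference of 2.53 ± 0.32 (± SE, adjusted p = 0.000107 by edgeR). *Nfkbia*, the gene of an inhibitor that NF-kB induces, rose by 1.97 ± 0.13 in URE-AML against Hox-WT (adjusted p = 5.55e-07 by edgeR). In Hox-URE it gave 0.39 ± 0.13 (adjusted p = 0.0234 by edgeR), under the fold change required. Other inhibitor genes of the list went the other way in URE-AML against Hox-WT. *Nfkbie* fell by 4.32 ± 0.26 (adjusted p = 2.92e-07 by edgeR) and *Nfkbib* by 0.62 ± 0.09 (adjusted p = 0.000257 by edgeR), and *Bcl3*, the gene of an atypical member of this inhibitor family, fell by 2.62 ± 0.82 (adjusted p = 0.019 by edgeR) from a mean of 1.64 CPM. *Icam1*, an adhesion molecule and a classical target, was at 12.4, 14.4 and 14.3 CPM in Hox-WT, at 0 in all Hox-URE libraries and at no more than 0.0429 CPM in URE-AML. Further targets of the list went both ways. Against Hox-WT, *Ccl3* rose by 2.76 ± 0.47 in Hox-URE (adjusted p = 0.000758 by edgeR) and 2.62 ± 0.47 in URE-AML (adjusted p = 0.000821 by edgeR). *Ptgs2* rose by 2.19 ± 0.45 in Hox-URE (adjusted p = 0.00229 by edgeR) and fell by 3.39 ± 0.60 in URE-AML (adjusted p = 0.000695 by edgeR).

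The 3 members with the highest mean CPM differed in their nearest patterns, taken as the smallest root mean square difference of log2(CPM + 0.5), centred per gene, over the 9 libraries of the 3 lines. For *Sigirr* these were *Tmem223* (0.127), *Slc38a1* (0.153) and *Tmem150b* (0.156). *Tmem150b* was at a mean of 0.0317 CPM in URE-AML, under the 0.5 CPM added, so its likeness to *Sigirr* rests on that addition. For *Il18rap* they were *Fam43a* (0.229), *Plcxd2* (0.236) and *Tmem181b-ps* (0.252), and the same holds for *Plcxd2*, at a mean of 0.0238 CPM in Hox-WT. *Il1rap* had the closest matches, *Osbpl9* (0.0986), *Ezr* (0.113) and *Plgrkt* (0.12). *Ezr*, which encodes the cytoskeletal linker ezrin, was at a mean of 166 CPM in Hox-WT, 432 CPM in Hox-URE and 330 CPM in URE-AML.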

How the data were processed

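Poly-A RNA from 3 libraries of each line was sequenced from stranded libraries. The authors used salmon on GRCm38 and tximport to obtain gene-level values, and the deposited values are estimated counts, 1 whole number per gene and library, that are not scaled to library size. The transcriptome release and any scaling for transcript length are not given in the sources used here, so a change in transcript use can alter a count. Lines and library numbers came from the labels.

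Genes with enough counts (filterByExpr, minimum count 10) were kept, leaving 13082. The model was fitted by edgeR 4.0.16 under R 4.3.3 (TMM scaling, quasi-likelihood, all 9 libraries, line as the only factor), with two-sided F tests and Benjamini-Hochberg adjustment over all tested genes. As in the study's methods, calls required more than 1.5-fold and an adjusted p under 0.05. Dividing each log2 fold change by the square root of F gave its SE. The p-values measure the spread between libraries of a line, which may be technical. A floor of 3 counts per library was used where a line was at 0. Count ratios are summed counts scaled for library size, with exact intervals at 95% that cover counting error only. Transcript lengths and positions came from GENCODE M21, and promoters from RefSeq (GRCm38.p6).

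Libraries with the same number deviated together in Hox-URE and Hox-WT (correlations of their deviations from the line means 0.358, 0.175 and 0.254), a hint from the data and not from the labels. In the comparisons with URE-AML these correlations were positive but lower, from 0.04 to 0.155. Libraries with different numbers were not compared as a reference. The members and gene lists were chosen with earlier results of these data known. All 9 family genes were named. Genes of other lists were given as counts. One could be named if called in a comparison or if its list held 12 genes or fewer, and those named were picked from the eligible genes with their values known. Nearest patterns gave 3 genes for each of 3 members. *Myd88*, *Irak1* and *Spi1* were named after their values were seen. The alternatives were other scalings (RLE, upper-quartile, library size only), no filter, at least 10 counts in every library, a replicate block, DESeq2 1.42.0, glmTreat, only the 6 libraries compared, no fold change threshold, the mean transcript length, and leaving out each library. The code was tested on simulated data. Figures were drawn with matplotlib 3.10.9.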

Additional observations from a re-analysis of the deposited data

How the results depend on the processing

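Over 24 log2 fold changes of the tested family genes, 447 values under alternative settings gave 18 lost calls, 2 gained calls and 0 called values of the opposite direction, and 20 of the 24 stayed on their side of the threshold under every setting run. The exceptions were *Il1r2* in both comparisons with Hox-URE, *Il1rl1* for URE-AML against Hox-WT and *Il1rap* between the URE lines. With glmTreat against a fold of 1.5, *Il1r2* had adjusted p of 0.0994 and 0.0753 and *Il1rl1* of 0.0913, and with only the 6 libraries compared *Il1r2* had 0.0523 for Hox-URE against Hox-WT. *Il1rap* was called with no fold change threshold. Among values that were not called, *Il1r2* for URE-AML against Hox-WT changed sign in 4 settings, reaching 0.46 without Hox-WT library 3, and *Il1rn* between the URE lines in 2. With at least 10 counts required in every library, 5 family genes were left, since *Il1r1*, *Il1r2* and *Il1rl2* were no longer tested. Of these, 4 were called for Hox-URE against Hox-WT and 3 for URE-AML against Hox-URE. Over all genes, that setting left 10022 tested genes and 3200, 3602 and 3553 calls in the 3 comparisons in place of 4873, 5648 and 5591. Leaving out 1 library at a time gave 6 to 7 called members for Hox-URE against Hox-WT, 6 to 7 for URE-AML against Hox-WT and 5 to 7 for URE-AML against Hox-URE, where 4687 to 5235, 5539 to 5945 and 5478 to 5873 of all genes were called.

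With the replicate number as a block, 7, 7 and 6 members were called in the 3 comparisons, no call of a family gene changed, and 4908, 5679 and 5584 genes were called over all. Same-numbered libraries gave correlations of 0.04, 0.123 and 0.155 for URE-AML with Hox-WT and of 0.075, 0.067 and 0.138 for URE-AML with Hox-URE. Scaling by library size alone moved the median of all genes by 0.11 on the log2 scale between the URE lines. It turned the balance of calls over all genes from 2662 higher and 2929 lower to 3166 and 2605 there, and from 2789 and 2084 to 2502 and 2545 for Hox-URE against Hox-WT. Depth limits *Il18r1* in every line, and *Il1r1* and *Il1rl2* in Hox-WT, where their levels rest on 9 counts or fewer per library.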

Other observations

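The inflammasome, which matures the IL-1 beta and IL-18 precursors, was not described above. *Nlrp3*, the gene of its best known sensor, was at 0.112, 0.0357 and 0.0346 CPM in Hox-WT, at 53.9, 34.4 and 30.6 CPM in Hox-URE and at 26.6, 16.9 and 13.5 CPM in URE-AML. It rose by a log2 difference of 9.26 ± 0.50 (± SE, adjusted p = 3.12e-07 by edgeR) in Hox-URE and 8.20 ± 0.51 (adjusted p = 4.21e-07 by edgeR) in URE-AML against Hox-WT, the same direction as *Il1rn*. The Hox-WT libraries held only 5 *Nlrp3* counts in all, so these values are imprecise, and the ratios of summed counts scaled for library size were 684 (95% interval 293 to 2110) and 322 (137 to 992), with intervals that cover counting error only. The list as a whole went both ways. In Hox-URE against Hox-WT, *Nlrp3* was the 1 of 10 called higher and 6 were lower, where 37.2% of all tested genes were called, and *Gsdmd*, the gene of the pore-forming gasdermin D, fell by 3.88 ± 0.22 (adjusted p = 3.86e-07 by edgeR) and *Casp1*, the gene of the protease that cuts the precursors, by 1.16 ± 0.16 (adjusted p = 0.000189 by edgeR). For URE-AML, 4 were called higher (*Nlrp3*, *Casp1*, *Pycard* and *Nlrp1b*) and 4 lower relative to Hox-WT, where 43.2% of all tested genes were called. Relative to Hox-URE 6 were higher and 1 lower, where 42.7% of all tested genes were called. *Casp1* was at 5.53, 5.43 and 7.81 CPM in Hox-URE and at 48.4, 39.2 and 44.7 CPM in URE-AML, and *Pycard*, the adaptor gene, at 29, 35.2 and 32.7 CPM and at 160, 150 and 168 CPM. Transcripts of the cytokines themselves were at or near 0 in the same libraries.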
